A study of Mus musculus with 6 samples.

Results

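The miRNAs described here come from a single run of hairpins on the mouse X chromosome: miR-322, miR-503, miR-351, miR-542 and the miR-450 group. They were picked by name alone, as every mouse assay of the deposited miRNA table named miR-322, miR-351, miR-450, miR-503 or miR-542, with any letter or arm after the number and leaving out names that end in a star. The rule found 10 of the 596 miRNA assays, which carry 9 of its 583 names, because miR-322 was listed with 2 assays. The star strands miR-322* and miR-503* were read beside them, and the table lists no star form of the other hairpins.

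The aortas of 6 mice were profiled with TaqMan microRNA cards, 3 from EC-Dicerflox mice (VE-Cadherin-CreERT2, Dicer1flox/flox, Apoe-/-) and 3 from EC-DicerWT mice (VE-Cadherin-CreERT2, Dicer1WT/WT, Apoe-/-). Both groups lacked Apoe and carried the Cre, both were given tamoxifen, which switches that Cre on, and both ate a high-fat diet for 4 weeks. The mice are labelled 6-8 weeks old. The question of the comparison was how loss of Dicer in endothelial cells (ECs) changes the miRNAs of the atherosclerosis-prone artery. The Cre is driven by an endothelial promoter, whereas the RNA is that of the whole aorta with its smooth muscle, fibroblasts and leukocytes, so fewer cells of a type and less RNA per cell cannot be told apart. Dicer1 itself was not on the cards, and the deletion could therefore not be checked in these samples.

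The hairpins of this cluster are cut out of shared primary transcripts and each is then diced into a duplex of a 5′ arm and a 3′ arm. Usually 1 arm of the duplex is kept on Argonaute and the other, written with a star in older names, is mostly discarded. Bases 2 to 8 of the kept strand, the seed, do most of the work of finding target mRNAs. miR-322 and miR-503 are known as members of the extended miR-15/16 family, whose targets include cyclins and other cell cycle genes, and both are induced as muscle cells stop dividing and differentiate. miR-351 is known as a relative of miR-125, and miR-542 and miR-450 are less well studied.

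The mature strands show which members could share targets, so they are printed here 5′ to 3′ from RefSeq, in lower case with the seed in capitals.
miR-322-5p: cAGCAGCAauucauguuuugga
miR-322-3p (miR-322*): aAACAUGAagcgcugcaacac
miR-503-5p: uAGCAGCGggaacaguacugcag
miR-503-3p (miR-503*): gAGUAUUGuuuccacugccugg
miR-351-5p: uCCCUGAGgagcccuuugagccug
miR-542-5p: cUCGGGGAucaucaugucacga
miR-542-3p: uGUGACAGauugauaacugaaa
miR-450a-5p: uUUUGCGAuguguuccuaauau
miR-450a-1-3p: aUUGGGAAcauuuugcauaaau
miR-450a-2-3p: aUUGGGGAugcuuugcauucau
miR-450b-5p: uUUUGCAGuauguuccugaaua
miR-450b-3p: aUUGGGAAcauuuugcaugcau

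The seeds split the cluster into groups that do not follow the hairpins. miR-322-5p has the seed AGCAGCA, which 10 of the 1679 mouse mature names in RefSeq carry, among them miR-15a, miR-15b, miR-16, miR-195 and miR-497. miR-503-5p differs from miR-322-5p within the seed by A8G (positions counted from 1 at the 5′ end, the base of miR-322-5p first), and no other RefSeq name has its seed. miR-351-5p shares CCCUGAG with miR-125a-5p, miR-125b-5p and 2 further names. The 5′ arms of miR-450a and miR-450b differ in the seed by G7A and A8G, whereas the 3′ arm of miR-450a-1 and that of miR-450b have the seed UUGGGAA in common. The 2 copies of the miR-450a 3′ arm differ in the seed by A7G, the base of the first copy first. For comparison, relatives outside the cluster begin with the same capitals and then diverge.
miR-15a-5p: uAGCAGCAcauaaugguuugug
miR-16-5p: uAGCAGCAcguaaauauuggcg
miR-195a-5p: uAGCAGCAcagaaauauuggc
miR-125b-5p: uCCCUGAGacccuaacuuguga

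In the RefSeq annotation of GRCm38.p6 the 7 miRNA genes lie on the minus strand of chromosome X within 6353 bases, between Hprt and Gm35988. In the direction of transcription Mir322 comes first (chrX:53054255-53054349), followed by Mir503 (chrX:53053984-53054054), Mir351, Mir542 (chrX:53049403-53049487), Mir450-2 (chrX:53048299-53048367), Mir450-1 (chrX:53048154-53048244) and Mir450b (chrX:53047997-53048078). The long noncoding RNA gene C430049B03Rik overlaps Mir322, Mir503 and Mir351. The deposited table names no genome build, and these positions were not needed for any value. The hairpins of Mir322 and Mir503 are shown with the arms in capitals, and both arms of each gave a signal in all 6 samples.
Mir322: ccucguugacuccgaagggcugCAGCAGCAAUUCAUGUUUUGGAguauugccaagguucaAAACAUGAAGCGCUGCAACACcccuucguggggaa
Mir503: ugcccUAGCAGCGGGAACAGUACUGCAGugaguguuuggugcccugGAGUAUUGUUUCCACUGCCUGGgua

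Values are threshold cycles (CT), the PCR cycle at which a well crosses the detection threshold, so that a low CT means much RNA and 1 cycle is close to a doubling. Wells without signal were listed at 40. The number of miRNA assays under 40 was 375 in EC-Dicerflox replicate 3 and 402 to 415 in the other 5 samples, and over the 350 assays under 40 in every sample its median CT was 28.2, against 26.4 to 27.5 in the others. The controls U6 and snoRNA135 were late in it too, with a mean of 20.2 against 18.7 to 19.6. This library stands apart most, and values without it are given beside the results that it moved most. EC-DicerWT replicate 3 was the next latest, with a median CT of 27.5 and a control mean of 19.6. The remaining samples had 26.4 to 26.8 and 18.7 to 18.9. Its 404 assays under 40 were within the range of those samples. Smooth muscle miRNAs, which the tissue label calls for, came up early, with a mean CT of 14.8 for miR-145 and 17.4 for miR-143.

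Of the 10 assays, 5 were under 40 in all 6 aortas: both miR-322 assays, miR-503, miR-450a-5p and miR-450B-3P, as the table spells the 3′ arm of miR-450b. miR-322* and miR-503* were also under 40 throughout. miR-542-5p and miR-450b-5p were under 40 in 5 samples, miR-542-3p in 3 and miR-351 in 2, and miR-450a-3p was at 40 in all 6. The cluster was thus spread from the middle of the range to its limit, and the estimates for its rarer strands rest on few wells.

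**Figure D1:**
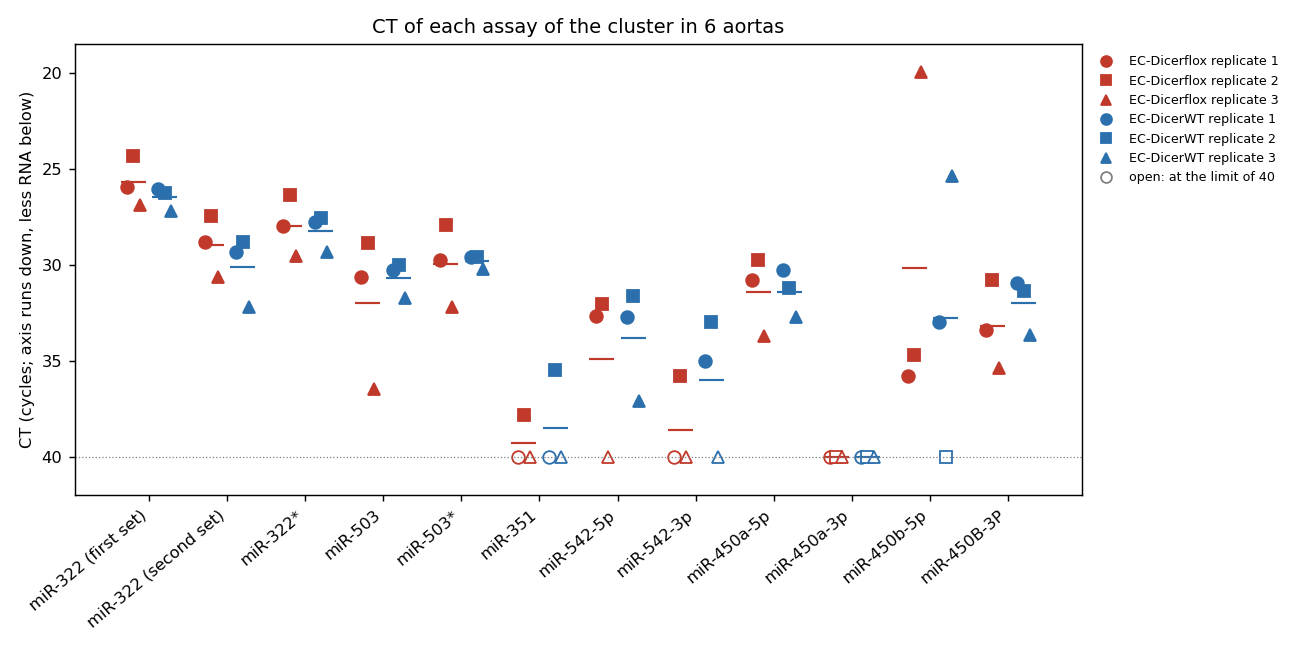
CT in cycles (vertical axis, running down) of each cluster assay and star strand in the 3 EC-Dicerflox (red) and 3 EC-DicerWT (blue) aortas, with marker shape for the replicate, short lines for group means and open symbols for wells at the limit of 40. The miR-322 assay of the first set is earliest at 24.3 to 27.2, the others start at 26.4 or later, and only miR-450b-5p breaks this order, scattering from 19.9 to 40.

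By mean CT over the 6 samples the members found in all of them fell in the order miR-322 of the first set of assays (26.1), miR-322 of the second set (29.5), miR-503 (31.3), miR-450a-5p (31.4) and miR-450B-3P (32.6). A set here is 1 of the 2 runs of assay numbers in the table, taken as the 2 cards. The step between the miR-322 assays was 3.44 cycles and held in 6 of 6 samples (two-sided exact sign-flip p = 0.03125, which 6 samples cannot go below, and 0.0625 adjusted over the 4 steps). The step from miR-450a-5p to miR-450B-3P was 1.16 cycles, again in 6 of 6 samples, with the same exact p. miR-503 and miR-450a-5p did not differ beyond their spread, being 0.09 cycles apart with 4 of 6 samples in that order (exact p = 0.9375), or 0.66 cycles apart without EC-Dicerflox replicate 3. miR-503 was later than the miR-322 assay of the second set in 5 of 6, by 1.79 cycles (exact p = 0.0625) or by 0.98 cycles without EC-Dicerflox replicate 3. Assays differ in efficiency, so these steps are between assays and not between numbers of molecules. The steps were tested in the same samples that set the order, so their p-values are no independent support for it.

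miR-322, the member with the earliest assay, was higher in each EC-Dicerflox aorta than in any EC-DicerWT aorta by its first assay. Its CT was 26.0, 24.3 and 26.9 in EC-Dicerflox replicates 1 to 3 and 26.0, 26.3 and 27.2 in the EC-DicerWT replicates. After subtraction of the control mean the levels, which are minus delta CT and so on a log2 scale, were -7.07, -5.62 and -6.65 in EC-Dicerflox and -7.22, -7.31 and -7.57 in EC-DicerWT. The groups did not overlap, but the lowest EC-Dicerflox and the highest EC-DicerWT level were close to each other and EC-Dicerflox replicate 2 carried the largest part of the gap.

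The fitted log2 fold change of this assay was 0.93 (SE 0.44, 95% interval -0.19 to 2.04), with an adjusted limma p = 0.923 over the 461 assays with a signal in at least 1 sample and an exact permutation p = 0.1. That p is the lowest that a two-sided test of 3 against 3 can reach. Separation of the groups is common in these data, since 10.4% of the 461 assays had groups that did not overlap. With 7 choices of reference RNA the miR-322 groups stayed apart under 6 and overlapped with U6 alone. Without EC-Dicerflox replicate 2 the log2 fold change was 0.51, and without EC-Dicerflox replicate 3 it was 1.03.

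The other assay named miR-322, in the second set, came up later and gave a similar estimate with more spread. Its CT was 28.8, 27.5 and 30.6 in the EC-Dicerflox replicates and 29.3, 28.8 and 32.2 in the EC-DicerWT replicates. On the level scale the groups overlapped, EC-Dicerflox replicate 2 being highest and EC-DicerWT replicate 3 lowest. The log2 fold change was 1.29 (SE 0.865, 95% interval -0.89 to 3.48, adjusted limma p = 0.923, exact permutation p = 0.3), and without EC-DicerWT replicate 3 it was 0.49. Without EC-Dicerflox replicate 2 it was 0.82, and without replicate 3 of that group 1.65. Within pairs of aortas with the same replicate number the level was higher in EC-Dicerflox in 3 of 3 pairs, by 0.59, 1.10 and 2.20, and by the assay of the first set it was so by 0.15, 1.70 and 0.92. For each assay the exact sign-flip p was 0.25, the lowest that 3 pairs allow, and 22.6% of the 461 assays were higher in all 3 pairs. The labels number the replicates within each group and do not state a pairing, so these pairs are assumed. With the replicate number as a block in limma neither assay passed the unadjusted threshold.

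The 2 assays of this name were 3.44 ± 0.884 cycles apart (SD, n = 6, range 2.54 to 5.04), the second later in every sample. The table gives no target sequence, and which arm or isoform the second assay reads cannot be told from it. Of the 6 names with 2 assays under 40 in all samples, the mean gap ran from -2.01 cycles for miR-467b to 4.78 cycles for miR-10b, so that such a gap is not particular to miR-322.

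miR-322*, the 3′ arm of the same hairpin, was measured at a CT of 28.0, 26.4 and 29.5 in EC-Dicerflox and 27.8, 27.6 and 29.4 in EC-DicerWT. The groups overlapped, with EC-Dicerflox replicate 2 again highest. Its log2 fold change was 0.43 (SE 0.57, 95% interval -1.02 to 1.87, adjusted limma p = 0.923, exact permutation p = 0.7). The sign turned without EC-Dicerflox replicate 2 (-0.0828), and the value was 0.74 without EC-Dicerflox replicate 3 and 0.11 without EC-DicerWT replicate 3.

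miR-503, the hairpin next to miR-322, had its values set largely by 1 library. Its CT was 30.7, 28.8 and 36.5 in EC-Dicerflox and 30.3, 29.99 and 31.7 in EC-DicerWT. EC-Dicerflox replicate 2 was the highest of the 6 samples in level and replicate 3 of the same group the lowest, so the EC-DicerWT samples lay between them. The log2 fold change was -1.17 (SE 1.62, 95% interval -5.25 to 2.92, adjusted limma p = 0.923, exact permutation p = 0.8), and it was 0.59 without EC-Dicerflox replicate 3 and -2.45 without EC-Dicerflox replicate 2.

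miR-503* was steadier in the control group than the strand it pairs with. The CT of miR-503* was 29.7, 28.0 and 32.2 in EC-Dicerflox and 29.6, 29.6 and 30.2 in EC-DicerWT. Its levels covered -12.0 to -9.25 in EC-Dicerflox and -10.8 to -10.6 in EC-DicerWT, the EC-Dicerflox samples lying on both sides of the controls. The log2 fold change was -0.02 (SE 0.73, 95% interval -1.85 to 1.81, adjusted limma p = 0.992, exact permutation p = 0.9) and became 0.63 without EC-Dicerflox replicate 3 and -0.75 without EC-Dicerflox replicate 2.

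miR-351, the miR-125 relative, was near the detection limit. It was seen at a CT of 37.8 in EC-Dicerflox replicate 2 and 35.5 in EC-DicerWT replicate 2 and was at 40 in the other 4 samples. With 1 detected well in each group its log2 fold change of -0.62 (SE 1.36, 95% interval -4.05 to 2.81, adjusted limma p = 0.936, exact permutation p = 0.9) leaves changes of several cycles in either direction within the interval. It was 0.79 without EC-DicerWT replicate 2 and 0.15 with CT capped at 35.

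The 5′ arm of miR-542 was detected more often than its 3′ arm. miR-542-5p had a CT of 32.7, 32.1 and 40 in EC-Dicerflox and 32.7, 31.6 and 37.1 in EC-DicerWT. Replicates 1 and 2 of both groups were alike and replicate 3 was the latest in each group. The log2 fold change was -0.94 (SE 2.20, 95% interval -6.50 to 4.62, adjusted limma p = 0.945, exact permutation p = 0.7) and 1.13 without EC-Dicerflox replicate 3, whose well was at the limit. With CT capped at 35 it was 0.0305, and without EC-DicerWT replicate 2 it was 0.0685.

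miR-542-3p was at 40 in EC-Dicerflox replicates 1 and 3 and in EC-DicerWT replicate 3, and had a CT of 35.8 in EC-Dicerflox replicate 2 and 35.02 and 32.99 in EC-DicerWT replicates 1 and 2. Every detected EC-DicerWT well was earlier than the only detected EC-Dicerflox well. The log2 fold change, with undetected wells kept at 40, was -2.45 (SE 1.92, 95% interval -7.31 to 2.41, adjusted limma p = 0.923, exact permutation p = 0.3), the lowest estimate among the members, and without EC-DicerWT replicate 3 it was -4.21, past the unadjusted limma threshold of 0.05 but not the adjusted one. In that fit 5 assays in all passed as higher and 7 as lower. The estimate for miR-542-3p was -1.04 without EC-DicerWT replicate 2 and -0.52 with CT capped at 35. With undetected wells left missing it could not be fitted, since EC-Dicerflox then has 1 value.

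miR-450a-5p, which both miR-450a hairpins give, had a CT of 30.8, 29.8 and 33.7 in EC-Dicerflox and 30.3, 31.2 and 32.7 in EC-DicerWT. The groups overlapped throughout, with EC-Dicerflox replicate 2 the highest and replicate 3 the lowest level. The log2 fold change was 0.13 (SE 0.77, 95% interval -1.82 to 2.08, adjusted limma p = 0.982, exact permutation p = 0.9) and 0.80 without EC-Dicerflox replicate 3. It turned negative without EC-Dicerflox replicate 2 (-0.42) or EC-DicerWT replicate 3 (-0.29).

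The strands of miR-450b gave values of very different quality. miR-450B-3P had a CT of 33.4, 30.8 and 35.4 in EC-Dicerflox and 30.9, 31.4 and 33.7 in EC-DicerWT. EC-Dicerflox replicate 2 was highest and replicates 1 and 3 of that group were lowest, for a log2 fold change of -1.07 (SE 0.98, 95% interval -3.55 to 1.42, adjusted limma p = 0.923, exact permutation p = 0.4). It was -1.98, past the unadjusted limma threshold but not the adjusted one, when EC-Dicerflox replicate 2 was left out, and -0.44 without EC-Dicerflox replicate 3. With EC-Dicerflox replicate 2 left out, 8 assays in all passed as higher and 11 as lower.

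miR-450b-5p had a CT of 35.8, 34.7 and 19.9 in EC-Dicerflox and 33.0, 40 and 25.4 in EC-DicerWT. The replicate 3 sample of each group was earlier than every other sample, by at least 7.59 cycles, and no other member showed this. The 95% interval of its log2 fold change of 2.79 ran from -12.8 to 18.4 (SE 6.19, adjusted limma p = 0.937, exact permutation p = 0.7), and without EC-Dicerflox replicate 3 the estimate was -2.79. It was -0.90 without EC-DicerWT replicate 2, whose well was at 40, and the same with undetected wells left missing, so that its sign turned with either library.

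Over the 9 members with a signal, 4 had a positive and 5 a negative log2 fold change, with a median of -0.62, beside 251 positive and 210 negative and a median of 0.08 over the 461 assays. The 5 members found in every sample had 3 positive and 2 negative values and a median of 0.13, beside a median of 0.10 over the 350 such assays. In limma 0 of 9 members had an unadjusted p under 0.05, where 3.04% of all assays did, 1.08% with a higher and 1.95% with a lower level in EC-Dicerflox, and after adjustment it was 0% of all assays. The ordinary linear model also gave 0 of 9, and limma with trend and robust moderation gave 1, the miR-322 assay of the first set. The groups did not overlap for 1 of 9 members, near the 10.4% of all assays. Without EC-Dicerflox replicate 3 the signs were 5 positive and 4 negative.

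**Figure D2:**
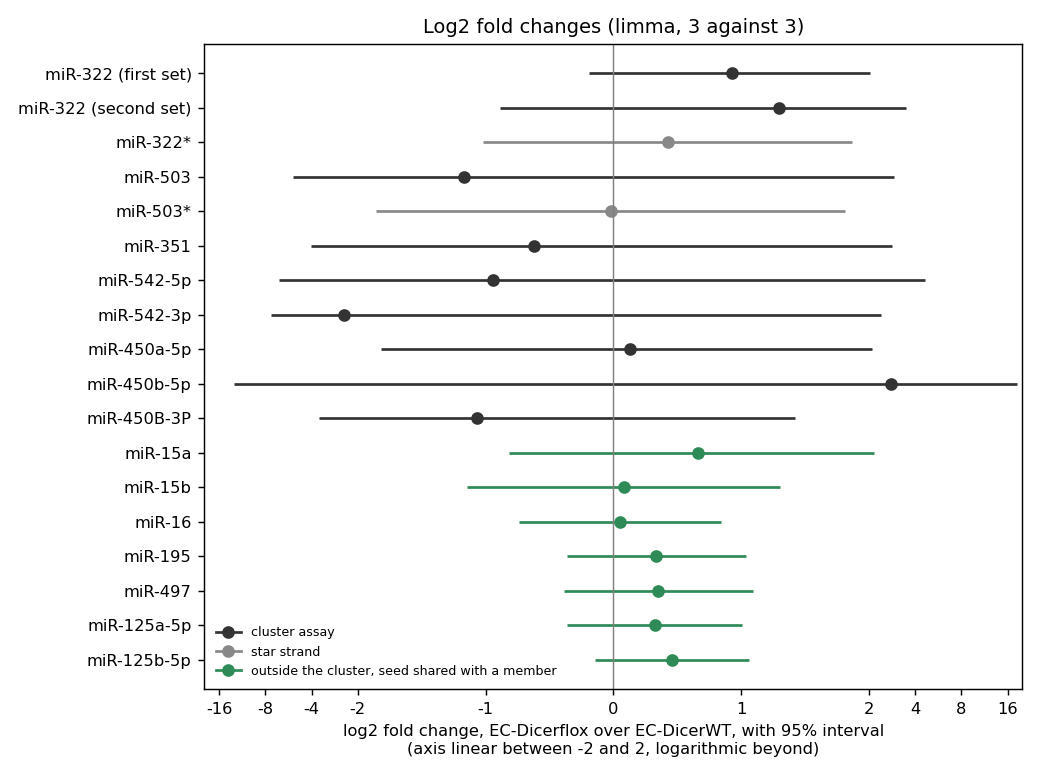
Log2 fold change of EC-Dicerflox over EC-DicerWT (horizontal axis, linear between -2 and 2 and logarithmic beyond) with its 95% interval from limma, for the cluster assays (black), the star strands (grey) and the miRNAs outside the cluster that share a seed with a member (green). All intervals include 0, and those of the seed relatives are much narrower than those of most members.

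EC-Dicerflox replicate 2 had the highest level of the 6 samples for 7 of 7 strands seen throughout, the 5 member assays and both star strands, with U6 and snoRNA135 as the reference. For miR-450B-3P its lead over EC-DicerWT replicate 1 was slight, at levels of -12.105 and -12.125, and relative to the median of the 350 assays EC-DicerWT replicate 1 was the higher of the pair, at -4.33 against -4.39. Among all 350 assays this sample was highest for 31.7%. The lowest level was in EC-Dicerflox replicate 3 for 4 of the strands and in EC-DicerWT replicate 3 for 3, against 23.1% and 32% of all assays.

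Comparison of strands within a sample needs no reference RNA where both assays lie in the same set, as for miR-542 and for the miR-322 assay of the second set with miR-322*. For arms in different sets the order was also read after subtracting the controls of each set. For miR-322 the 5′ arm was 2.00 cycles earlier than miR-322* by the assay of the first set, in 6 of 6 samples (range 1.31 to 2.67), and 2.32 cycles earlier after the controls of each set, again in 6 of 6. By the assay of the second set it was 1.44 cycles later, also in 6 of 6 samples, so the order of the arms depends on which assay stands for miR-322. For miR-503 the star strand was the earlier one in 6 of 6 samples, by 1.45 cycles (range 0.40 to 4.24), although its name marks it as the minor arm. Without EC-Dicerflox replicate 3 the mean of miR-503* minus miR-503 was -0.89 cycles. After the controls of each set it was -1.13 cycles over all samples, with miR-503* still earlier in 6 of 6 but in 1 of them by only 0.0625 cycles.

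For miR-542 the 5′ arm was earlier in 5 of the 5 samples with a signal in either arm. The gap was 1.36, 2.28 and 3.76 cycles in the 3 samples with both arms under 40 and at least 7.34 and 2.91 cycles in those where only the 5′ arm was. For miR-450a the 5′ arm was under 40 in 6 of 6 samples and the 3′ arm in 0 of 6. For miR-450b the 3′ arm was earlier in 4 samples and the 5′ arm in the 2 replicate 3 samples, by 15.5 and 8.27 cycles. The assays of the arms can differ in efficiency.

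**Figure D3:**
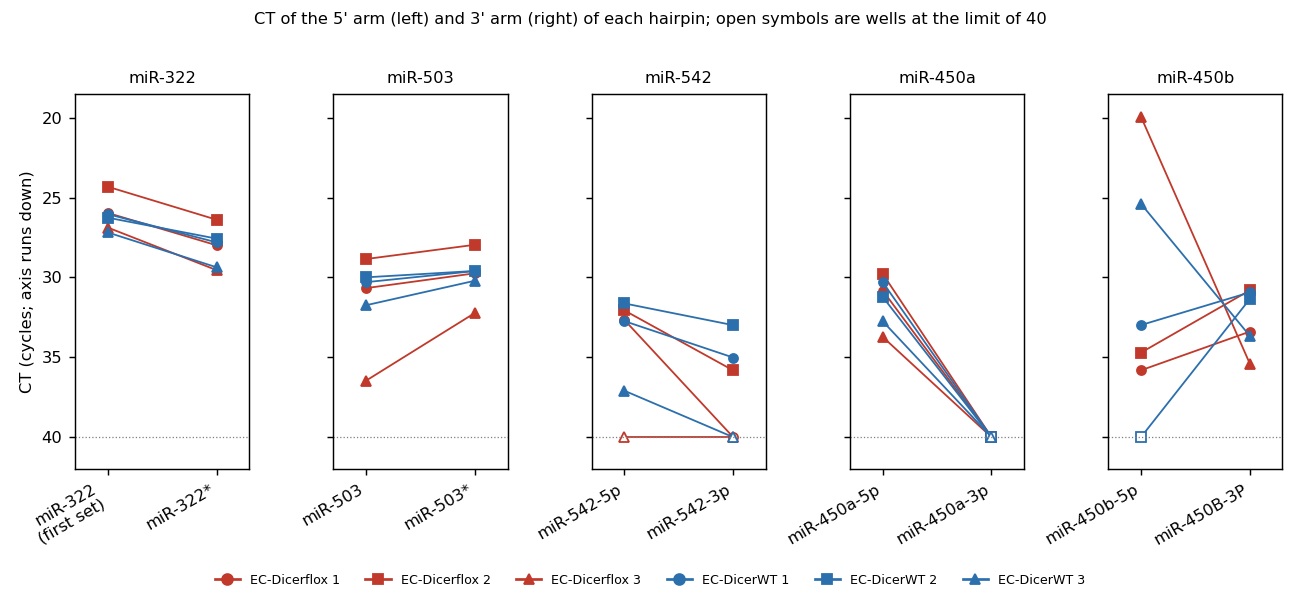
CT in cycles (vertical axis, running down) of the 5′ arm (left) and the 3′ arm (right) of each hairpin, for miR-322 by the assay of the first set, with 1 line per aorta, red for EC-Dicerflox and blue for EC-DicerWT, with open symbols at the limit of 40. Lines fall to the right for miR-322 and for miR-542 in 5 of 6 samples, the other having both arms at 40. They rise for miR-503 in all 6 samples and cross for miR-450b.

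Differences between strands of the cluster within a sample were compared between the groups for 13 pairs, and 5 of them had groups that did not overlap, where 11.3% of all pairs of the 350 assays did. In 3 of the 5 miR-450B-3P was the later assay, and its gap to the other member was wider in EC-Dicerflox. miR-322 of the first set minus miR-450B-3P was -7.43, -6.49 and -8.52 cycles in EC-Dicerflox and -4.90, -5.09 and -6.48 cycles in EC-DicerWT. The highest EC-Dicerflox and the lowest EC-DicerWT value nearly touched.

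For the assay of the second set this gap was -4.22 ± 0.77 cycles in EC-Dicerflox and -1.86 ± 0.60 in EC-DicerWT (SD, n = 3). For miR-450a-5p it was -1.76 ± 0.77 and -0.56 ± 0.40 cycles, a difference of -1.20 that was -0.79 without EC-Dicerflox replicate 1. These 3 differences share miR-450B-3P and are not independent of each other. The other 2 pairs were miR-503 minus miR-322 of the second set, at 3.02 cycles in EC-Dicerflox and 0.56 in EC-DicerWT, and miR-322 of the second set minus miR-322*, at 1.00 and 1.87 cycles. The difference between groups in the former, 2.46 cycles, was 1.06 without EC-Dicerflox replicate 3, and that in the latter, -0.87 cycles, was -0.38 without EC-DicerWT replicate 3. Both contain the miR-322 assay of the second set, as does 1 of the 3 differences above, so all 5 rest on that assay or on miR-450B-3P and are not 5 separate findings.

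Each of the 5 had an exact permutation p = 0.1, the lowest possible, and 0.26 adjusted over the 13 pairs. The remaining 8 pairs overlapped. For miR-322 of the first set minus miR-322* the difference between groups was -0.50 cycles (exact permutation p = 0.3), or -0.71 to -0.28 with 1 sample left out. For miR-503 minus miR-503* it was 1.14 cycles (exact permutation p = 0.5), or 0.03 without EC-Dicerflox replicate 3.

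The measured miRNAs outside the cluster that share a seed with miR-322 or miR-351 had earlier assays than that member, which does not rank them by number of molecules. Other RefSeq names outside the cluster with a member's seed had no assay on the cards. With the seed of miR-322, miR-16 had a mean CT of 19.2, miR-195 of 21.1, miR-15a of 23.6, miR-15b of 23.6 and miR-497 of 23.9, all earlier than the miR-322 assay of the first set at 26.1. All 5 had positive log2 fold changes, from 0.05 for miR-16 to 0.67 for miR-15a with a median of 0.34, and none had a limma p under 0.05. The value of miR-15a was 0.18 without EC-Dicerflox replicate 3, 0.32 without EC-DicerWT replicate 2 and 1.09 without EC-Dicerflox replicate 1. The signs of miR-15b and miR-16 turned with snoRNA135 or snoRNA202 as the reference. miR-195 had groups that did not overlap, as for 10.4% of all assays, with a log2 fold change of 0.34 (exact permutation p = 0.1). It was 0.14 without EC-DicerWT replicate 2 and 0.17 with snoRNA202 alone as the reference.

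With the seed of miR-351, miR-125b-5p had levels of 0.09, 0.06 and 0.25 in EC-Dicerflox and -0.12, -0.50 and -0.34 in EC-DicerWT. These groups did not overlap, as for 10.4% of all assays, with a log2 fold change of 0.46 (SE 0.24, adjusted limma p = 0.923, exact permutation p = 0.1). miR-125b-5p passed the unadjusted threshold in the ordinary linear model, where 14 of the 461 assays passed as higher and 10 as lower. It also passed in limma with trend and robust moderation, where 8 passed as higher and 8 as lower. With U6, snoRNA135 or snoRNA202 alone as the reference its log2 fold change was 0.54, 0.37 or 0.30 and did not pass. miR-125a-5p had a log2 fold change of 0.32, or 0.20 without EC-DicerWT replicate 3 and 0.16 with snoRNA202 as the reference, and its groups overlapped. The mean CT of miR-125b-5p was 19.3, while miR-351 was under 40 in 2 samples.

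Markers of the cells that an aorta holds were read beside the members. The ECs' own miR-126-3p and miR-126-5p had log2 fold changes of 0.41 and 0.85, neither past the unadjusted threshold in limma. Their summed level (log2 of the summed linear levels) was 1.05 to 1.72 in EC-Dicerflox and 0.84 to 0.91 in EC-DicerWT, with no overlap. Such separation was also seen for 10.4% of the 461 single assays. The smooth muscle pair miR-143 and miR-145 had 0.14 and 0.25, with summed levels of 4.30 to 5.56 and 4.23 to 4.83. The leukocyte list had 1 positive and 3 negative values of 4. In it miR-142-5p was the 1 miRNA past the unadjusted limma threshold, with a log2 fold change of -0.996 (limma, adjusted p = 0.923).

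The summed level of the leukocyte list was -0.89 to -0.23 in EC-Dicerflox and -0.54 to 0.32 in EC-DicerWT. Of 6 striated muscle miRNAs in the table, the heart and slow-muscle miR-208b and miR-499 were at 40 in all samples, and the other 4 had positive log2 fold changes with summed levels of 0.04 to 0.46 and 0.02 to 0.16. The red cell miR-451 and miR-486 had log2 fold changes of 0.21 and -0.22, with summed levels of -2.21 to -1.23 in EC-Dicerflox and -2.42 to -0.70 in EC-DicerWT. The part of any of these cell types in the miR-322 values was not tested.

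The assays that ran most like the cluster over the 6 samples were found by the SD of their CT difference from the mean of the 5 members seen throughout. Over 350 assays this SD had a median of 1.04 cycles. Outside the cluster it was smallest for miR-16* (0.39), miR-32 (0.43), miR-582-5p (0.44), miR-467c (0.45) and miR-339-3p (0.49). Against the mean of the other members miR-450a-5p had 0.41 and ranked 2 of 350, whereas miR-450B-3P ranked 102, the miR-322 assays 216 and 224 and miR-503 309. The star strands ranked 9 (miR-322*) and 12 (miR-503*).

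These ranks depended on single samples, and all the assays share libraries and depth. Without EC-Dicerflox replicate 3 miR-322* ranked 1 with an SD of 0.21 cycles, miR-503 ranked 3, miR-450a-5p 17 and the miR-322 assay of the first set 38. The miR-322 assay of the second set and miR-450B-3P then ranked 202 and 211, and 0 of the 5 names stayed among the nearest 5. Without EC-Dicerflox replicate 2 miR-450a-5p ranked 13, miR-322* 41, miR-503* 47 and miR-450B-3P 203, and 1 of the 5 names stayed. Without EC-DicerWT replicate 1 the number that stayed was 2, and without EC-DicerWT replicate 3 miR-503* ranked 1.

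**Figure D4:**
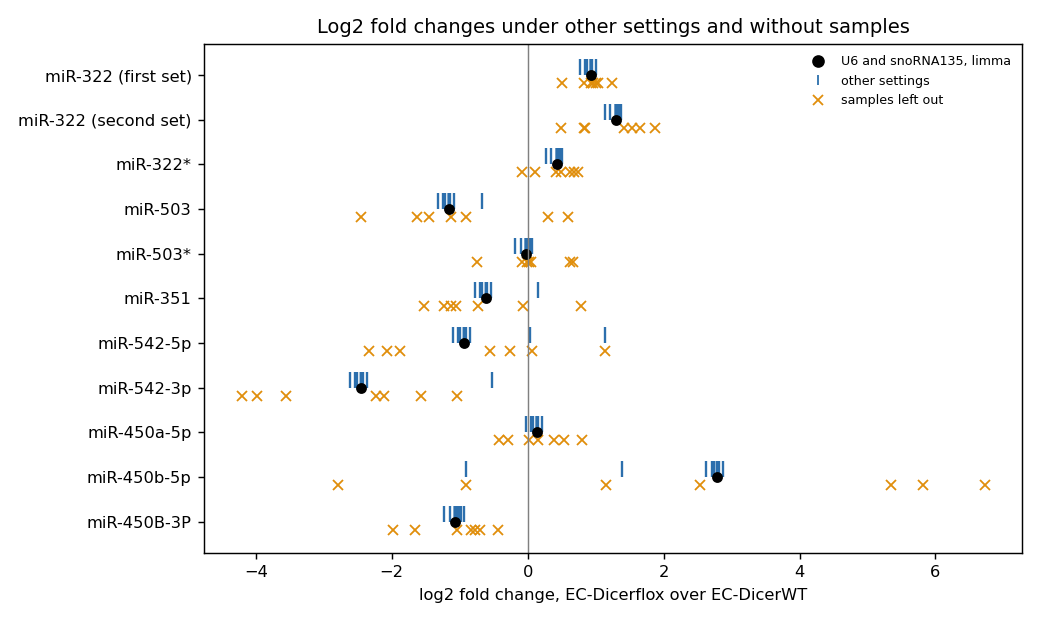
Log2 fold change of EC-Dicerflox over EC-DicerWT (horizontal axis) of each cluster assay and star strand, as a black point for the limma fit with U6 and snoRNA135, blue bars for the other settings and orange crosses for fits with samples left out. Both miR-322 assays lie above 0 and miR-542-3p and miR-450B-3P below 0 in all fits shown, while miR-503, miR-351, miR-542-5p and miR-450b-5p lie on both sides.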

How the data were processed

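TaqMan microRNA cards were run on RNA of 3 EC-Dicerflox and 3 EC-DicerWT aortas. The authors deposited 1 table of raw CT values, not normalized, with wells without signal at 40. Per the study's methods, reverse transcription with rodent primer pools and a pre-amplification came before the cards. The setting of threshold and baseline is not given in the sources used here. The 6 columns carry the samples' names, and 0 columns of sample values were unused. The labels give male mice and the methods female mice, and no result uses the sex.

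CT values were subtracted from the mean of U6 and snoRNA135 (4 wells) and tested in R 4.3.3 with limma 3.58.1 over the 461 mouse miRNA assays under 40 in at least 1 sample, with Benjamini-Hochberg adjustment. The fit was also run on values simulated independently per sample for the 350 assays under 40 in every sample. That run had no wells at 40, so it does not cover the members with such wells. The exact permutation tests (20 arrangements) and sign-flip tests (64) were two-sided and run in Python 3.11.15. The replicates are labelled biological, 3 per group, and their number limits the precision. Names were matched to RefSeq sequences for 11 of the cluster names and star strands.

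The assays named are all those the name rule finds, their star strands, the miRNAs with the same seed, the marker lists and the 5 assays nearest to the cluster. Members, lists and settings were chosen with earlier results of these data known. The sets of assays were inferred from the style of the assay numbers. Alternatives were to treat wells at 40 as missing (2 or more values needed in each group), to cap CT at 35, a stricter filter, other references, other estimates of the spread, a replicate block and leaving out each sample. Leaving out replicate 3 of both groups was chosen after seeing the data.

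Samples with the same replicate number deviated together (correlations of 0.150, 0.224 and 0.431 over 350 assays, each above 0.1), so the block is given as a paired fit. Samples of different number did so in part too, with 0.285 for EC-Dicerflox replicate 1 and EC-DicerWT replicate 2 and 0.117 for EC-Dicerflox replicate 2 and EC-DicerWT replicate 1, and the remaining correlations, which each involve 1 replicate 3 sample, were negative.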

Additional observations from a re-analysis of the deposited data

How the results depend on the processing

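With 3 aortas per group and intervals several cycles wide, only large differences were detectable for members near the limit of 40. Both miR-322 assays kept a positive and miR-542-3p and miR-450B-3P a negative log2 fold change in every fit run. Unadjusted calls over all assays numbered 5 higher and 9 lower. The higher count was 3 with U6 alone, 14 in the ordinary linear model, 8 with trend and robust moderation, 8 without replicate 3 of both groups, and 4 to 10 with 1 sample left out, and the lower count was 14 with snoRNA202 alone. Adjusted calls ranged from 0 to 2 with 1 sample left out, being 2 without EC-Dicerflox replicate 1 and 1 without EC-Dicerflox replicate 3. The miR-322 assay of the first set passed the unadjusted limma threshold with the mean of all miRNAs as reference (0.95), without EC-Dicerflox replicate 1 (1.24) and with the trend and robust variant of limma (0.93). Signs turned for miR-351 with CT capped at 35 (0.15), miR-450a-5p with snoRNA202 (-0.0293), miR-450b-5p with missing wells (-0.90), miR-503 without replicate 3 of both groups (0.31), and miR-542-5p with missing wells (1.13) or the cap (0.0305). They also turned for miR-503* with U6 (0.0615), controls of the same set (0.0335), the mean reference (0.0037) or without replicate 3 of both groups (0.67), for miR-15b with snoRNA135 (-0.0028), snoRNA202 (-0.0807) or without replicate 3 of both groups (-0.18), for miR-16 with snoRNA135 (-0.0298), snoRNA202 (-0.11) or controls of the same set (-0.0018), and for miR-503 minus miR-450B-3P with the cap (-0.26 cycles). The cause was not tested.

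With 1 sample left out, log2 fold changes ranged from 0.51 to 1.24 (miR-322, first set), 0.49 to 1.87 (miR-322, second set), -1.52 to 0.79 (miR-351), -0.42 to 0.80 (miR-450a-5p), -2.79 to 6.73 (miR-450b-5p), -2.45 to 0.59 (miR-503), -4.21 to -1.04 (miR-542-3p), -2.33 to 1.13 (miR-542-5p), -1.98 to -0.44 (miR-450B-3P), -0.0828 to 0.74 (miR-322*), -0.75 to 0.63 (miR-503*), 0.18 to 1.09 (miR-15a), -0.34 to 0.44 (miR-15b) and -0.19 to 0.25 (miR-16). The step between miR-503 and miR-450a-5p ranged from -0.13 to 0.66 cycles, the difference of the miR-322 assays between groups from -0.34 to 0.91 cycles, and miR-503 minus miR-450B-3P from -1.04 to 0.86 cycles. Of the 5 nearest names, 0 to 5 were shared (star strands of the cluster could take a place), and 0 with miR-322 as reference.

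Pairing the aortas by replicate block left the log2 fold changes as they were, at 0.93 for miR-322 of the first set, and 0 of 9 members passed the unadjusted limma threshold, so that the block changed no call among them.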

Other observations

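The early wells of miR-450b-5p in both replicate 3 samples had few counterparts. Of the 461 assays with a signal, 6 were earlier in both of these samples than in every other sample, and 2 of them by over 5 cycles. The other one was miR-452, with a gap of 9.45 cycles, named here after its values were seen. miR-546, miR-291a-3p and miR-211 had gaps of 4.88, 4.94 and 4.58 cycles.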
